A study of Mus musculus with 8 samples.

Results

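The 10 Wnt/β-catenin pathway genes described here are Lgr4, Lgr5, Rnf43, Znrf3, Apc, Axin2, Ctnnb1, Tcf7l1, Tcf7l2 and Lef1, out of 55413 genes annotated on the mouse chromosomes used. They were chosen by name, and every accessible interval within 10 kb of a gene body was assigned to that gene. This gave 402 regions, 20 at a promoter (within 1 kb of an annotated transcription start site of the gene) and 382 distal, of 315767 regions over the genome. A further 15 regions lay at the start site of another gene or noncoding transcript and were counted in neither class.

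The assay was bulk ATAC-Seq, where a transposase cuts and tags open DNA, on hepatocytes of C57BL/6 mice aged 10 to 12 weeks and kept on a normal diet. Hepatocytes were isolated by collagenase perfusion before partial hepatectomy (PHx, the surgical removal of most of the liver; 0 h) and at 48, 72 and 96 h after it. Each of the 4 time points had 2 libraries, replicates 1 and 2, and values of a time are written with replicate 1 before and replicate 2 after a slash. The study's methods describe adult males of the C57BL/6J strain. The bulk replicates at 0 h and 48 h are described there as biological, from separate hepatocyte preparations and 3 at each time, whereas 2 libraries at each time were analysed here. The labels do not tie the libraries to mice, so p values measure the spread between these libraries.

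Canonical Wnt signaling turns on the fate of β-catenin, the protein encoded by Ctnnb1. Without ligand, a destruction complex built on the scaffolds Apc and Axin2 marks β-catenin for degradation; when a Wnt ligand engages its receptors, β-catenin enters the nucleus and binds TCF/LEF factors on target genes. R-spondins, acting through Lgr4 and Lgr5, remove the ubiquitin ligases Rnf43 and Znrf3, which otherwise clear the receptors from the cell surface. In the liver the pathway is best known for setting the gene program of the hepatocytes around the central vein, and Axin2, Lgr5, Rnf43 and Znrf3 are themselves targets of it.

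TCF/LEF factors recognize words built on CTTTG, and CTTTGAT and CTTTGAA were searched for on both strands in the 200 bp around each summit, the point of highest signal in a region. A match was found in 12 of 124 distal member regions present in at least 4 of 8 lists (9.68%), against 8.46% of 80809 distal regions over the genome. Matches lay in 1 of 15 member promoter regions, against 4.09% of 20660. The HNF4 word CAAAGTCCA, which shares the letters CAAAG with the reverse complement of the TCF/LEF words, was present in 2 of the 124 distal regions (1.61%, against 1.55% over the genome). The FOXA word TGTTTAC was present in 6 (4.84%, against 5.51%) and the AP-1 word TGANTCA in 8 (6.45%, against 9.07%). Znrf3 had 4 of the 12 distal regions with a TCF/LEF match, Rnf43 had 2, and Axin2 and Ctnnb1 had none.

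The sequences below are the strongest distal region with a TCF/LEF match of Lgr5, Znrf3, Lef1 and Tcf7l2, shown because these letters are the part of each region that the pathway's own factors could read. All are given 5′ to 3′ on the plus strand of GRCm38.p6, 200 bases around the summit, with the TCF/LEF words in capitals.
Lgr5, intron, chr10:115511760-115511959: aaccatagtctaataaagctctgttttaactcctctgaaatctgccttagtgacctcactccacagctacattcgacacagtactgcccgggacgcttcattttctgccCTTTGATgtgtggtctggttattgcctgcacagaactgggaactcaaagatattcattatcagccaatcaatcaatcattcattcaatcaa
Znrf3, intron, chr11:5297139-5297338: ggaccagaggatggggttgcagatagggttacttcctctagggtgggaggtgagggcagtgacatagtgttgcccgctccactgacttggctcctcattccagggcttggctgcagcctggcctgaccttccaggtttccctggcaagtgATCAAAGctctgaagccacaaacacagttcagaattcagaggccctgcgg
Lef1, intergenic upstream of the gene, chr3:131106045-131106244: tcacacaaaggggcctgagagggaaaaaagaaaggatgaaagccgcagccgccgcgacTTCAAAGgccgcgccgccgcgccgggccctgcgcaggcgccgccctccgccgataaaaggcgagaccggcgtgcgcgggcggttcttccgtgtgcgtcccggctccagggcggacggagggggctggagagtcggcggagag
Tcf7l2, intron, chr19:55891812-55892011: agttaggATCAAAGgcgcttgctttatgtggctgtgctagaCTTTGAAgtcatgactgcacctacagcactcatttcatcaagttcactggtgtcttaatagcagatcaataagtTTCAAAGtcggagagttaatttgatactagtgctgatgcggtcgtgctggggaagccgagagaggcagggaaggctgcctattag

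The strongest promoter region of Axin2 also held a TCF/LEF word, in the first intron 0.44 kb downstream of the start site. Its 27 bases at chr11:108920780-108920806 are shown with the word in capitals: cggctcgcgcCTTTGAAgtgcacagtt. The distal region with the smallest unadjusted p of all, in an intron of Tcf7l2 at chr19:55909040-55909239, held none of these words and was picked for display after its values were seen: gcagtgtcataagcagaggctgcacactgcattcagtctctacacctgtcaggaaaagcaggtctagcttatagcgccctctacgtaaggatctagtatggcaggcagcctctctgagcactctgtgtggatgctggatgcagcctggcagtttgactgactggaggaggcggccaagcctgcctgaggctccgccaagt

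The strength of an interval is given here as its percentile within the list of its library, ranked by the −log10 p value of the peak caller, so that 100 is the strongest interval of the list and 0 marks an interval that is not listed. The lists held 105206 to 154577 distinct intervals, and those of 0 h (126773 and 105206) were shorter than those of 72 h (140311 and 154577). In a shorter list the same rank has a lower percentile: rank 50000 stood at percentile 60.6 and 52.5 in the 0 h lists and at 64.4 and 67.7 in the 72 h lists. Counts of regions above or below 0 h are therefore given both by percentile and by rank within the list, the latter added after the data were seen. Fold enrichment is quoted as listed, before normalization. Its median over a whole list was 4.55/5.07 (0 h), 3.95/3.73 (48 h), 4.29/3.90 (72 h) and 4.14/4.09 (96 h), lower in every list after PHx than at 0 h. Normalized fold enrichment correlated between libraries across the regions tested at r = 0.726 to 0.799 within the 4 pairs of the same time and at 0.699 to 0.806 over the 24 pairs of different times (the regions of a library share its depth).

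Promoters of the hepatocyte markers Alb, Apoa1, Apoa2, Ttr, Hnf4a, Fgb, Serpina1a, Cps1 and Tat were listed for 9 of 9 genes in both 0 h libraries. The summed percentile of these 9 promoters was 601 to 659 at 0 h, 293 to 488 at 48 h, 487 to 509 at 72 h and 483 to 577 at 96 h, and the Alb promoter was listed in neither library at 48 h or 72 h. The summed percentile of the 5 stellate markers was 233 to 272 at 0 h, 282 to 329 at 48 h, 252 to 329 at 72 h and 264 to 267 at 96 h. That of the 5 cholangiocyte markers, with Krt19 not listed anywhere, was 203 to 218 at 0 h, 164 to 208 at 48 h, 199 to 259 at 72 h and 219 to 234 at 96 h. The 6 endothelial markers, with Stab2 and Lyve1 not listed, summed to 124 to 145 at 0 h, 80.8 to 125 at 48 h, 123 to 168 at 72 h and 112 to 137 at 96 h. The 6 Kupffer cell markers, with Csf1r, Ptprc and Marco not listed, summed to 26.3 to 26.4 at 0 h, 34.2 to 42.7 at 48 h, 18.1 to 65.1 at 72 h and 4.24 to 69.9 at 96 h. The hepatocyte sums after PHx thus stood below those of 0 h at all 3 times and overlapped among themselves. Of the 9 hepatocyte promoters, 5, 3 and 2 stood below both 0 h libraries at 48, 72 and 96 h by percentile. The shares of all promoter regions in at least 4 of 8 lists were 19.6%, 13.6% and 11.8%. By rank 8, 8 and 6 hepatocyte promoters stood below, beside 25.4%, 27% and 19.5%. Alb, listed in 3 libraries, is counted though it did not meet that filter. The stellate sums did not overlap between 0 h and 48 h, but without Des they did (233 to 264 and 258 to 280). The Kupffer sums at 48 h and the cholangiocyte sums at 96 h also stood above those of 0 h. The part of any of these lists in the values of the Wnt genes was not tested, and in bulk nuclei fewer cells of a type and less open chromatin per cell cannot be told apart.

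No region of the 10 genes passed the test between any time after PHx and 0 h. In the limma fit on quantile-normalized log2 fold enrichment, 139 member regions (15 promoter and 124 distal) were tested among 101469 regions present in at least 4 of 8 lists. A region listed only in the 2 libraries of 0 h cannot meet this filter, whereas a region listed only after PHx can. The share called at an adjusted p under 0.05 was 0% of all regions at 48, 72 and 96 h and in the F test over all times, and the smallest adjusted p of a member region was 0.333. At an unadjusted p under 0.05 there were 14 member regions at 48 h, 10 at 72 h and 8 at 96 h, against 8.27%, 6.74% and 5.75% of all regions, or 8395, 6835 and 5830 regions. The median log2 difference of the 139 regions was 0.02 at 48 h, -0.01 at 72 h and -0.07 at 96 h, beside 0.00, -0.03 and -0.02 over all regions tested. The differences described below are therefore values of these libraries, read against how many regions of the genome moved apart in the same way.

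At the promoters, Lgr4, Lgr5, Tcf7l1 and Tcf7l2 had intervals among the strongest of every list. The stronger of the 2 Lef1 promoter regions tested, of 3 in all, was weak at 0 h and stood higher at all 3 later times. The main promoter of Znrf3 stood lower at all 3 times and that of Axin2 at 48 h alone, and none of these passed the test.

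Lgr4, the R-spondin receptor expressed most broadly, had its strongest promoter region at chr2:109917285-109918392. Its percentiles were 99.6/99.1 (0 h), 98.9/99.7 (48 h), 99.7/99.9 (72 h) and 98.9/99.5 (96 h). Its mean percentile over the 8 libraries was the highest of the 10 promoters, although Znrf3 stood higher in 0 h replicate 2 and Tcf7l2 in 96 h replicate 1, and 72 h was the time at which both libraries stood above both 0 h libraries. Lgr5, the R-spondin receptor known as a stem cell marker in several epithelia, had its promoter region at chr10:115586061-115588096. Its percentiles were 97.1/94.6 (0 h), 98.8/97.6 (48 h), 98.1/98.1 (72 h) and 96.4/95.8 (96 h), so that the 48 h and 72 h libraries stood above 0 h. Its fold enrichment did not, at 14.8/14.7 at 0 h and 11.1/9.74 at 48 h, beside list medians of 4.55/5.07 and 3.95/3.73. The log2 difference at 48 h was -0.07 ± 0.26 (SE; adjusted p = 0.96) and 0.40 when −log10 p was fitted instead of fold enrichment, so the direction at this promoter depends on the measure.

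Rnf43 and Znrf3 encode the ubiquitin ligases that clear Wnt receptors. The Rnf43 promoter region at chr11:87662176-87662926 had percentiles of 85.4/84.4 (0 h), 76.9/92.5 (48 h), 92.1/81.1 (72 h) and 84.2/82.6 (96 h). The 48 h and 72 h libraries lay on both sides of 0 h, and the 96 h libraries stood slightly below it. A weaker Rnf43 promoter region, over a coding exon 1.92 kb from the gene start, was listed in neither 0 h library and had percentiles of 0/59.0 (48 h), 44.5/50.6 (72 h) and 0/32.4 (96 h). It met the filter of 4 lists only through later libraries, which fixed the direction of its difference from 0 h beforehand. Its log2 difference, with unlisted values set to the lowest of the list, was 1.0 ± 0.61 at 48 h and 1.18 ± 0.61 at 72 h (SE; adjusted p = 0.72 and 0.81), and that of 48 h was 1.72 without 48 h replicate 1. The Znrf3 promoter region at chr11:5444051-5445570 had percentiles of 98.1/99.4 (0 h), 91.6/94.2 (48 h), 95.0/95.7 (72 h) and 97.5/93.8 (96 h). Every library after PHx stood below both 0 h libraries, by percentile and by rank. Listed fold enrichment was 15.2/18.7 at 0 h against 8.54/9.33 at 48 h, beside list medians of 4.55/5.07 and 3.95/3.73. The log2 difference at 48 h was -0.48 ± 0.26 (SE; adjusted p = 0.69), and -0.32 without 0 h replicate 2. A second Znrf3 promoter region, at an internal start site 64.3 kb into the gene, moved otherwise, with percentiles of 81.5/71.3 at 0 h and 91.3/84.6 at 48 h.

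In the destruction complex, the Apc promoter region at chr18:34220506-34221812 had percentiles of 91.0/86.7 (0 h), 86.0/88.0 (48 h), 91.7/94.4 (72 h) and 95.6/88.2 (96 h). By percentile both libraries stood above 0 h at 72 h alone, and by rank both stood below it at 48 h alone. At a second Apc start site, 26.5 kb into the gene, the percentiles were 57.9/62.7 (0 h), 75.7/64.4 (48 h), 67.2/68.2 (72 h) and 67.3/64.5 (96 h), higher at all 3 times by percentile and at none by rank. Axin2, a scaffold that the pathway itself induces, had its promoter region at chr11:108920038-108921456, where the word shown above lies. Its percentiles were 86.7/91.4 (0 h), 78.0/72.8 (48 h), 91.4/92.7 (72 h) and 89.1/92.4 (96 h). The 48 h libraries stood apart below all 6 others. Listed fold enrichment was 9.13/12.0 at 0 h and 5.69/5.17 at 48 h, beside list medians of 4.55/5.07 and 3.95/3.73. The log2 difference at 48 h was -0.55 ± 0.29 (SE; adjusted p = 0.68), and -0.34 without 0 h replicate 2.

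Ctnnb1 encodes β-catenin itself. Its strongest promoter region, at chr9:120933152-120933885, had percentiles of 82.9/87.8 (0 h), 84.2/91.7 (48 h), 86.4/82.6 (72 h) and 80.4/84.8 (96 h), and overlapped with 0 h at every time. A weaker region 0.753 kb from the same start site was listed at 0 h (31.7 and 29.0) and in 1 later library, 72 h replicate 1 (3.29), and was present in too few lists to be tested.

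Among the TCF/LEF factors, Tcf7l1 and Tcf7l2, the members best known as a repressor and as the main TCF of adult liver, kept strong promoters. The Tcf7l1 region at chr6:72788027-72789773 had percentiles of 98.8/96.6 (0 h), 95.9/99.0 (48 h), 97.9/97.8 (72 h) and 98.8/96.8 (96 h), overlapping throughout. The Tcf7l2 region at chr19:55741211-55741962 had percentiles of 98.3/97.2 (0 h), 98.7/98.1 (48 h), 99.1/99.1 (72 h) and 99.7/98.0 (96 h), apart from 0 h only at 72 h. Lef1, the family member associated with proliferating and developing tissues, was the weakest of the 10 at 0 h. Its region at chr3:131111107-131112634, 0.759 kb from the start of the gene, had percentiles of 37.4/15.3 (0 h), 68.4/57.9 (48 h), 71.7/83.4 (72 h) and 60.9/71.8 (96 h). Every library after PHx stood above both 0 h libraries, by percentile and by rank. Fold enrichment was 3.90/3.22 (0 h), 4.90/3.93 (48 h), 5.76/6.62 (72 h) and 5.27/6.10 (96 h). The log2 difference was 0.54 ± 0.30 at 48 h and 0.72 ± 0.30 at 72 h (SE; adjusted p = 0.70 and 0.74), and the 48 h difference was 0.32 without 48 h replicate 1. A weaker Lef1 promoter region 0.158 kb upstream of the gene start had percentiles of 0/31.0 (0 h), 0/33.5 (48 h), 24.5/35.7 (72 h) and 25.7/20 (96 h) and overlapped with 0 h at every time.

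**Figure D1:**
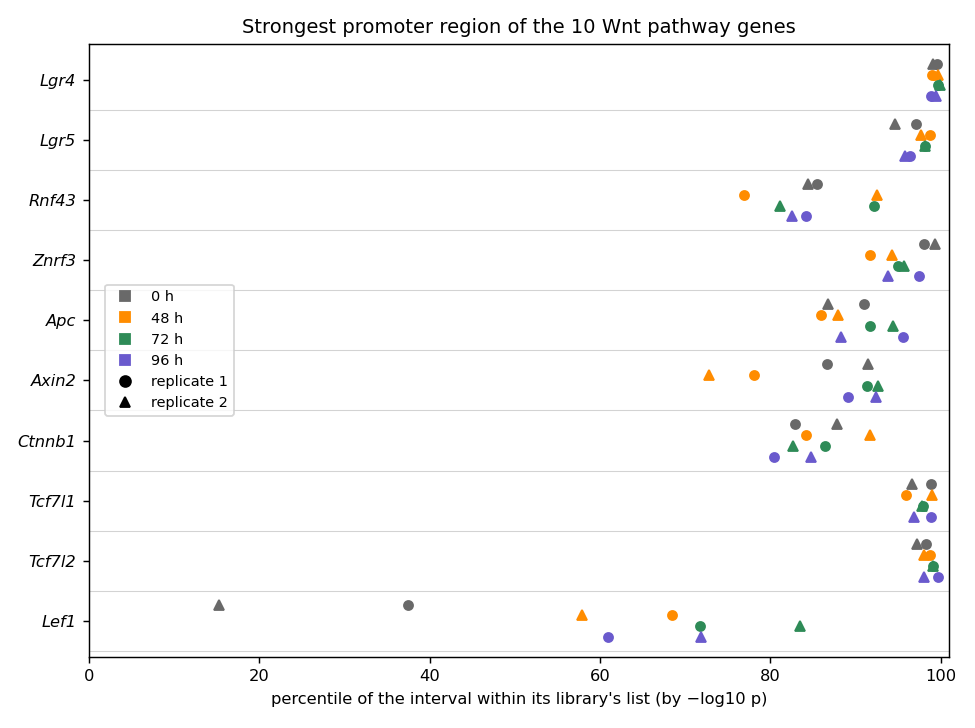
Percentile of the strongest promoter region of each gene (x axis, 0 to 100 within the list of the library), with 1 point per library colored by time and circles and triangles for replicates 1 and 2. Lef1 is the gene whose 0 h points (37.4 and 15.3) lie far left of its later points (57.9 to 83.4), and the 48 h points of Axin2 (78.0 and 72.8) lie left of all its others.

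Of the 15 promoter regions tested, 4 stood above both 0 h libraries at 48 h, 8 at 72 h and 2 at 96 h, beside 20.8%, 30.3% and 22.6% of all 20660 promoter regions. Below 0 h stood 2, 1 and 2, beside 19.6%, 13.6% and 11.8%. By rank the counts above were 3, 5 and 1 (17.6%, 17.8% and 15% of all promoters) and those below 3, 1 and 3 (25.4%, 27% and 19.5%). Higher at all 3 times were the Lef1 region and the internal Apc region (2 of 15, beside 6.75% of all), and lower at all 3 was the Znrf3 region (1 of 15, beside 3.1%). By rank it was Lef1 alone above (beside 4.16%) and Znrf3 alone below (beside 7.05%), the same regions as by percentile and rank together (beside 3.97% and 3.04%). With 15 regions, 1 region is 6.67%. The share above 0 h at 72 h was 53.3% by percentile and 33.3% by rank, and no difference from the genome was tested.

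The distal regions were mostly intronic: 323 of 382 lay in introns, 38 between genes, 13 over a coding exon, 4 over a UTR and 4 over a noncoding exon. Tcf7l2 had the most (75, of which 30 were tested) and Axin2 the fewest (9, of which 5 were tested), and these are also the longest of the 10 genes (192 kb) and the shortest (30.4 kb). Of the 382, 186 were listed in 1 library only and 59 in all 8. The number of the 402 promoter and distal regions that a library listed ranged from 132 in 48 h replicate 1 to 212 in 72 h replicate 2, the shortest and longest lists of the later times being 48 h replicate 1 and 72 h replicate 2 as well.

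**Figure D2:**
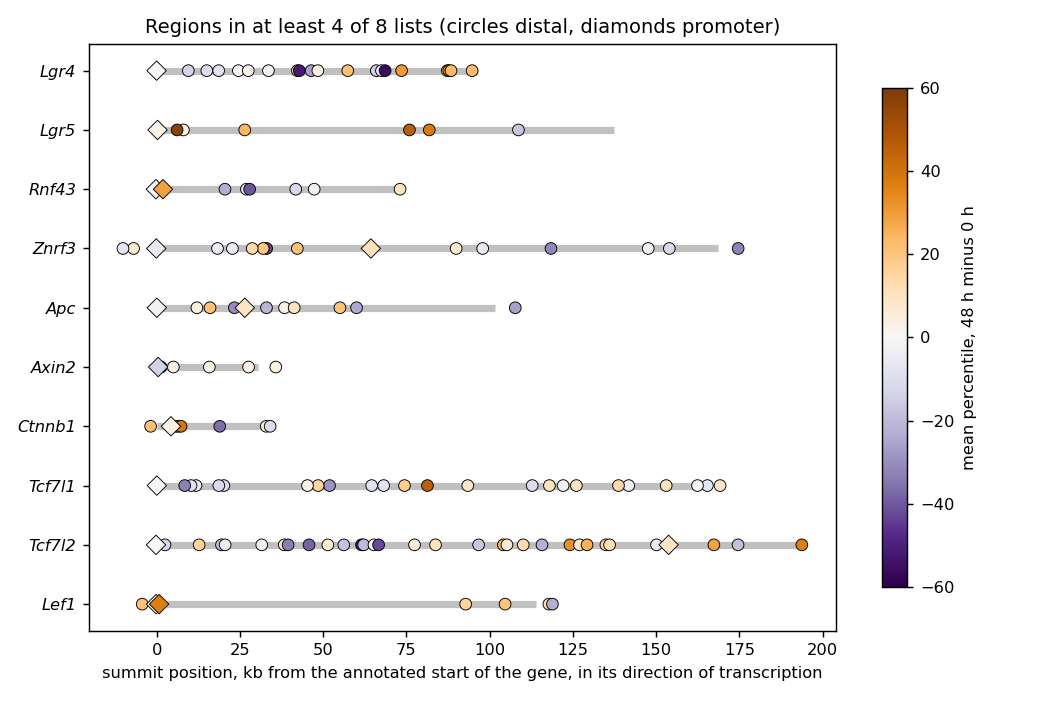
Position of the 139 tested regions along each gene (x axis, kb from the annotated start in the direction of transcription; gray bars are gene bodies), with diamonds for promoter and circles for distal regions. Color is the mean percentile at 48 h minus that at 0 h, and regions above and below 0 h alternate along the same gene body in Tcf7l2, Tcf7l1, Lgr4 and Znrf3.

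By percentile, 28 of 124 distal regions stood above both 0 h libraries and 28 below at 48 h, 53 above and 6 below at 72 h, and 32 above and 14 below at 96 h. Over all 80809 distal regions the shares were 19.9% above and 16.6% below at 48 h, 37.1% above and 7.21% below at 72 h, and 24.1% above and 9.98% below at 96 h. By rank the same counts were 24 above and 36 below at 48 h, 23 above and 22 below at 72 h, and 18 above and 29 below at 96 h, and the shares over the genome 16.6% and 22%, 21.5% and 18.2%, and 16.4% and 18%. The excess of higher over lower regions by percentile was thus much smaller by rank at 72 h, in the 10 genes and in the genome, and turned to an excess of lower regions at 96 h. On the quantile-normalized fold enrichment that was fitted, 18 member regions stood above and 25 below at 72 h (15279 and 16151 of all distal regions), so the direction of the 72 h split depends on the scale. At 48 h, 22.6% of the member regions stood below 0 h by percentile (16.6% over the genome) and 29.0% by rank (22% over the genome).

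**Figure D3:**
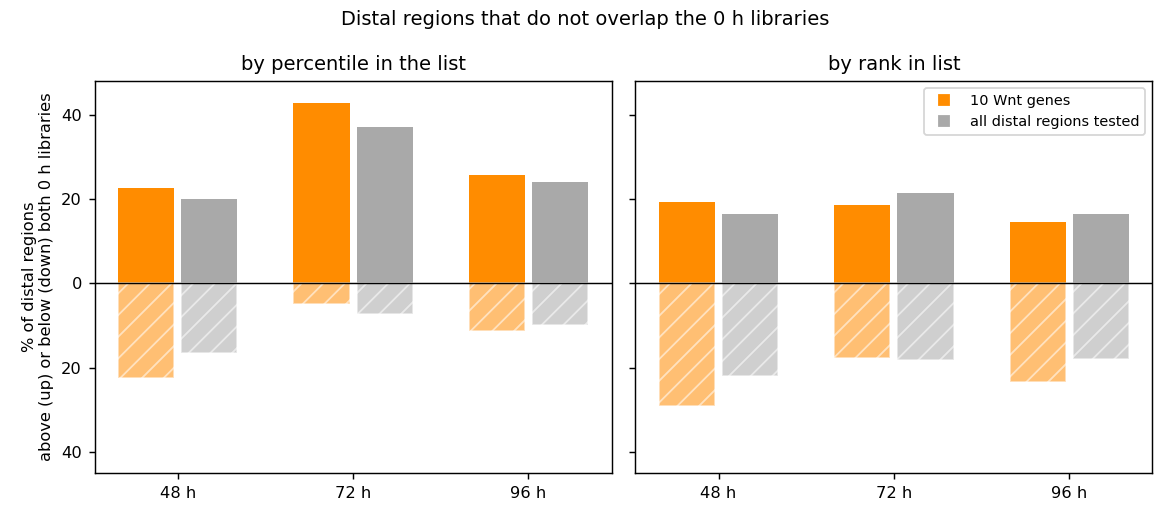
Share of distal regions above (upward solid bars) or below (downward hatched bars) both 0 h libraries at each time, for the 10 Wnt genes (orange, 124 regions) and all distal regions tested (gray, 80809), by percentile on the left and by rank on the right. At 72 h the orange bar is 42.7% up and 4.84% down by percentile, and 18.5% up and 17.7% down by rank.

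**Figure D4:**
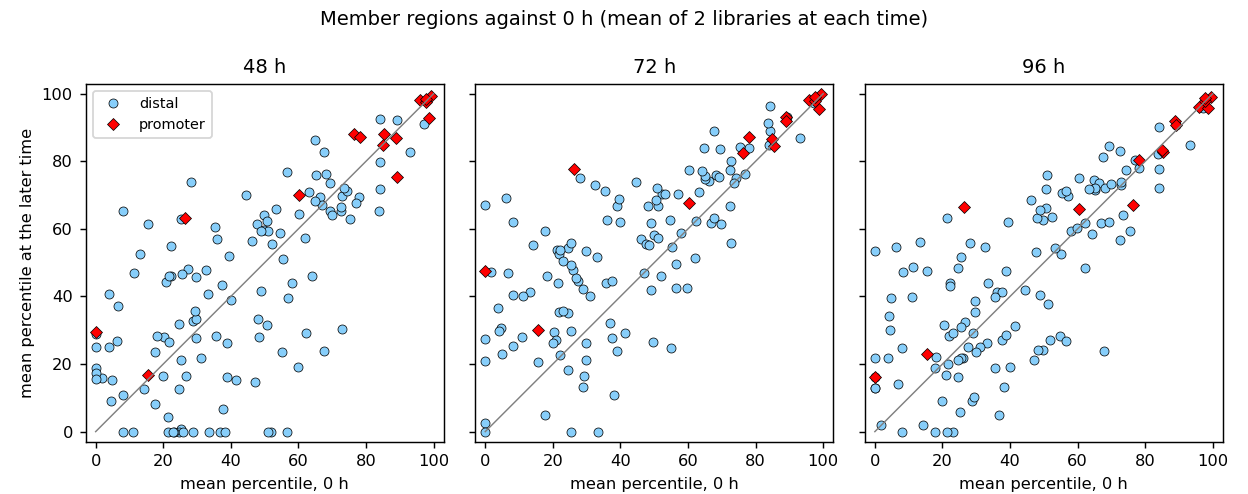
Mean percentile of each tested member region at 0 h (x axis) against 48, 72 or 96 h (y axis; mean of 2 libraries, not listed counted as 0), with red diamonds for promoter and blue circles for distal regions and a line of equality. Most promoter regions cluster at the top right near the line, while distal regions spread widely on both sides at 48 h.

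By percentile, 12 distal regions of 6 genes stood above both 0 h libraries at all 3 times and 3 stood below (9.68% and 2.42%, beside 5.83% and 1.81% of all distal regions). By rank the counts were 4 and 11 (beside 3.33% and 5.36%). By percentile and by rank together there were 3 above and 3 below (beside 3.17% and 1.78%). The 3 above were regions of Tcf7l2, Lgr5 and Tcf7l1, and the 3 below were regions of Lgr4, Tcf7l2 and Tcf7l1. The filter can keep regions listed only after PHx and drops those listed only at 0 h. Counts above and below 0 h are therefore not on equal terms, in the 10 genes and in the genome.

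The Tcf7l2 region at chr19:55908973-55909276, in an intron 167 kb into the gene, is the one whose sequence is shown without a word in capitals. It was listed in neither 0 h library and in all 6 later ones, with percentiles of 28.6/29.4 (48 h), 54.1/80.1 (72 h) and 54.5/52.7 (96 h). Its fold enrichment was 3.42/2.98 (48 h), 4.83/8.53 (72 h) and 4.80/4.50 (96 h). The log2 difference, with the 0 h values set to the lowest of their lists, was 1.26 ± 0.37 at 48 h, 2.0 ± 0.37 at 72 h and 1.62 ± 0.37 at 96 h (SE; adjusted p = 0.42, 0.45 and 0.51). Because the 0 h values are set and not measured, these sizes depend on that setting. The region met the filter of 4 lists only through the later libraries, which fixed the direction of its difference beforehand.

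The Lgr5 region at chr10:115581182-115581737, 6.14 kb from the start of the gene, overlapped an intron of Lgr5 and of the noncoding gene A930009A15Rik. It had percentiles of 0/16.4 (0 h), 71.8/58.6 (48 h), 61.0/62.8 (72 h) and 53.8/40.7 (96 h). All later libraries stood above 0 h, and the log2 difference was 1.44 ± 0.46 at 48 h and 1.26 ± 0.46 at 72 h (SE; adjusted p = 0.45 and 0.68). The first 0 h library does not list this region and takes the lowest value of its list. Without 0 h replicate 1 the Lgr5 differences were 0.73 and 0.55, with unlisted values left missing 0.84 and 0.82, and without 0 h replicate 2 the 72 h difference was 1.97. The Tcf7l1 region at chr6:72707438-72708463, in an intron 81.3 kb into the gene, was listed in all 8 libraries. Its percentiles were 27.4/28.8 (0 h), 69.2/78.3 (48 h), 72.9/77.3 (72 h) and 70.0/41.6 (96 h). The log2 difference was 1.18 ± 0.30 at 48 h and 1.08 ± 0.30 at 72 h (SE; adjusted p = 0.35 and 0.54).

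Of the 3 lower regions, that of Lgr4 at chr2:109932101-109933354, in an intron 15.1 kb into the gene, was strong throughout. Its percentiles were 92.3/94.0 (0 h), 80.0/85.3 (48 h), 86.3/87.4 (72 h) and 90.1/79.5 (96 h). The other 2 were weak and often not listed after PHx. The Tcf7l2 region at chr19:55787450-55787732, 45.8 kb into the gene, had percentiles of 45.7/30.6 at 0 h and was listed later only in 72 h replicate 2 (21.8) and 96 h replicate 1 (26.7). Its log2 difference was -1.23 ± 0.29 at 48 h, -1.33 ± 0.29 at 72 h and -1.08 ± 0.29 at 96 h (SE; adjusted p = 0.33, 0.46 and 0.57), with unlisted values set to the lowest of the list. The Tcf7l1 region at chr6:72736942-72737632, 51.9 kb into the gene, had percentiles of 36.7/21.1 at 0 h and was listed later in 72 h replicate 1 (5.74), 72 h replicate 2 (20.5) and 96 h replicate 2 (17.9).

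**Figure D5:**
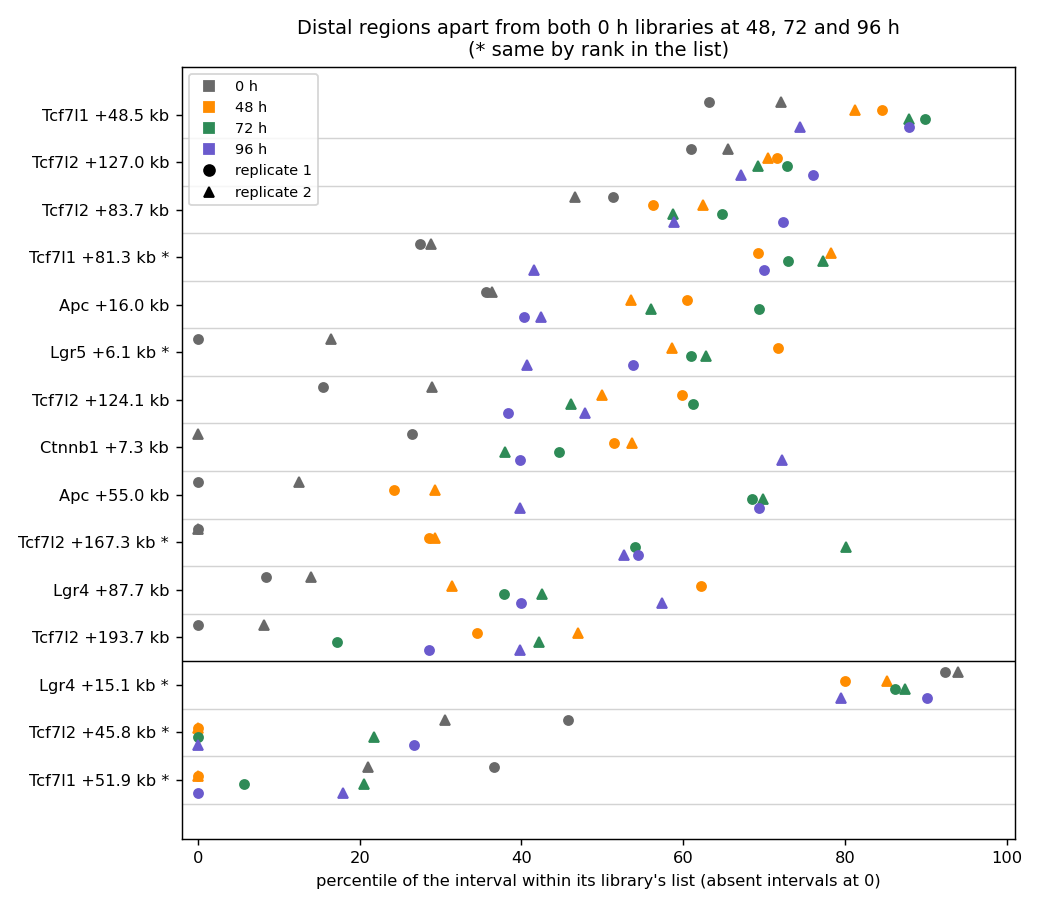
Percentile in every library of the 15 distal regions that stood apart from both 0 h libraries at 48, 72 and 96 h, named by gene and distance from its start, with 12 higher regions above the dark line and 3 lower ones beneath it. An asterisk marks the 6 regions that also stood apart by rank, among them Tcf7l2 +167.3 kb, which is at 0 in both 0 h libraries.

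The other 9 regions that stood above 0 h at all 3 times by percentile did not do so by rank. Apc had such regions in introns 16.0 kb and 55.0 kb into the gene. The latter, at chr18:34275401-34276309, had percentiles of 0/12.5 (0 h), 24.3/29.4 (48 h), 68.6/69.8 (72 h) and 69.4/39.9 (96 h), with a log2 difference of 1.73 ± 0.48 at 72 h and 1.37 ± 0.48 at 96 h (SE; adjusted p = 0.54 and 0.75). Without 0 h replicate 1, which does not list the Apc region, these differences were 1.05 and 0.70. It stood above 0 h by rank at 72 h and 96 h. Ctnnb1 had a region in an intron 7.3 kb from the annotated gene start, with percentiles of 26.5/0 (0 h), 51.4/53.6 (48 h), 44.6/37.9 (72 h) and 39.8/72.2 (96 h). Lgr4 had a region 87.7 kb into the gene, with percentiles of 8.40/14.0 (0 h), 62.2/31.5 (48 h), 37.9/42.6 (72 h) and 39.9/57.4 (96 h). Tcf7l1 had 1 more, described next as its strongest distal region, and Tcf7l2 had 4, at 83.7, 124, 127 and 194 kb from its start. None of the 15 regions held a TCF/LEF word within 100 bp of the summit, and the Tcf7l2 region 124 kb into the gene held an AP-1 word. Of all distal regions, 8.46% held a TCF/LEF word and 9.07% an AP-1 word, and with 15 regions no difference was tested.

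The strongest distal region of each gene shows how far the genes differ away from the promoter. That of Lgr4, at chr2:109984628-109985398 in an intron, had percentiles of 97.0/97.3 (0 h), 90.1/92.0 (48 h), 98.2/96.3 (72 h) and 94.0/97.8 (96 h), below 0 h at 48 h alone. That of Lgr5, at chr10:115478355-115479437 over a coding exon, had 59.1/55.0 (0 h), 25.2/53.9 (48 h), 67.3/73.2 (72 h) and 72.2/67.1 (96 h). It stood below 0 h at 48 h and above it at 72 h and 96 h.

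For the ligases, the strongest distal region of Rnf43, at chr11:87704145-87705103 in the gene body over an exon of the noncoding transcript 1110028F11Rik, had percentiles of 76.7/74.1 (0 h), 63.2/62.7 (48 h), 85.8/82.7 (72 h) and 78.8/40.2 (96 h). It too stood below 0 h at 48 h and above it at 72 h, and by rank it stood below at 96 h as well. That of Znrf3, at chr11:5426127-5426873 in an intron, had 82.1/86.0 (0 h), 81.9/77.6 (48 h), 93.0/76.8 (72 h) and 79.6/76.1 (96 h), and held a FOXA word. It stood below 0 h at 48 h and 96 h by percentile and at 96 h by rank.

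In the destruction complex, the strongest distal region of Apc, at chr18:34259024-34259508 in an intron, had percentiles of 92.5/86.0 (0 h), 92.5/91.9 (48 h), 94.7/91.2 (72 h) and 91.6/90.1 (96 h), overlapping throughout. That of Axin2, at chr11:108936025-108937027 in an intron, had 71.7/60.8 (0 h), 56.0/82.7 (48 h), 79.4/68.8 (72 h) and 72.9/74.3 (96 h). Its 48 h libraries lay on both sides of 0 h, unlike those of the Axin2 promoter, and its 96 h libraries stood above 0 h by percentile but not by rank. The Ctnnb1 region, at chr9:120926874-120927550 upstream of the gene in an intron of the noncoding gene 4930593C16Rik, had 74.8/55.0 (0 h), 81.1/91.6 (48 h), 77.1/90.9 (72 h) and 82.2/67.0 (96 h). It stood above 0 h at 48 h and 72 h by percentile and at 48 h by rank.

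For the TCF/LEF factors, the strongest distal region of Tcf7l1, at chr6:72740540-72741278 in an intron, had percentiles of 63.3/72.1 (0 h), 84.5/81.3 (48 h), 89.9/87.9 (72 h) and 87.9/74.4 (96 h). It stood above 0 h at all 3 times by percentile and at 48 h and 72 h by rank. That of Tcf7l2, at chr19:55779235-55780520 in an intron, had 80.2/88.2 (0 h), 97.1/87.8 (48 h), 95.6/97.0 (72 h) and 93.3/87.2 (96 h), above 0 h at 72 h alone. That of Lef1, at chr3:131214941-131215378 in an intron near the end of the gene, had 48.3/64.8 (0 h), 81.7/72.0 (48 h), 35.5/49.2 (72 h) and 75.6/67.0 (96 h). It stood above 0 h at 48 h and 96 h by percentile and below it at 72 h by rank, unlike the Lef1 promoter.

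The regions whose TCF/LEF words are shown above varied as widely. The Znrf3 region was steady, with percentiles of 75.8/72.8 (0 h), 74.8/67.7 (48 h), 75.7/74.1 (72 h) and 75.6/79.0 (96 h). The Tcf7l2 region with 3 words had 76.1/69.0 (0 h), 66.1/67.1 (48 h), 84.8/69.9 (72 h) and 81.8/84.3 (96 h), below 0 h at 48 h and above it at 96 h. The Lgr5 region had 31.2/0 (0 h), 53.9/69.2 (48 h), 0/40.9 (72 h) and 42.6/52.7 (96 h), with both libraries of 48 h and of 96 h above 0 h. The Lef1 region had 50.9/0 (0 h), 34.6/58.6 (48 h), 36.8/75.0 (72 h) and 61.7/0 (96 h), and the replicates of 0 h and of 96 h lay far apart.

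Promoters of 87 other genes of the pathway were read from lists of ligands, receptors, transducers, nuclear partners, inhibitors and liver targets. Of these, 68 had a promoter region listed in all 8 libraries, 77 were tested, and Wnt8b, Rspo2, Sost and Kremen2 had none in any library. The median percentile was highest for the 10 transducers and destruction complex genes (95.9) and lowest for the 24 genes of ligands and their release (60.1). No promoter was called at 48, 72 or 96 h, and 5, 5 and 3 of 77 had an unadjusted p under 0.05 in the limma fit (6.49%, 6.49% and 3.90%). Over all regions, promoter and distal together, the shares were 8.27%, 6.74% and 5.75%. By percentile, 23 of 77 stood above 0 h and 16 below at 48 h, 33 above and 10 below at 72 h, and 31 above and 5 below at 96 h. The shares above were 29.9%, 42.9% and 40.3%, beside 20.8%, 30.3% and 22.6% of all promoter regions, and those below 20.8%, 13.0% and 6.49%, beside 19.6%, 13.6% and 11.8%. The pathway shares take the strongest promoter region of each gene, whereas all promoter regions include weaker ones and those of noncoding genes. By rank 23, 20 and 21 stood above (29.9%, 26.0% and 27.3%, beside 17.6%, 17.8% and 15%) and 20, 18 and 9 below (26.0%, 23.4% and 11.7%, beside 25.4%, 27% and 19.5%). Of 18 tested promoters of ligands and their release 10 stood above 0 h and 3 below at 48 h (11 and 4 by rank), and of 10 nuclear partners 1 stood above and 5 below (1 and 6 by rank). The difference between these groups was not tested. The receptors had 3 above and 1 below of 16 at 48 h, the inhibitors 5 and 1 of 12, the liver targets 3 and 4 of 11, and the transducers 1 and 2 of 10.

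The 3 promoters with the smallest unadjusted p at 48 h were those of Rspo4, Cyp1a2 and Dkk4. Rspo4, which encodes an R-spondin ligand of Lgr4 and Lgr5, was listed in neither 0 h library and had percentiles of 50.3/61.2 (48 h), 44.6/53.5 (72 h) and 55.7/19.2 (96 h). Cyp1a2, a cytochrome P450 of the hepatocytes around the central vein, had 59.2/63.7 (0 h), was listed in neither 48 h library, and had 62.8/63.9 (72 h) and 32.6/17.9 (96 h). Dkk4, a secreted Wnt inhibitor, had 35.6/36.0 at 0 h, 30.1/35.5 at 72 h and was not listed at 48 h or 96 h. Their adjusted p values at 48 h in the limma fit were 0.32, 0.32 and 0.33. In that fit the values of Rspo4 at 0 h, and of Cyp1a2 and Dkk4 at 48 h, were set to the lowest of their lists. Because these values are set and not measured, the p values depend on that setting. Rspo4 met the filter only through the later libraries, which fixed the direction of its difference from 0 h beforehand.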

How the data were processed

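ATAC-Seq peak lists of 8 libraries (4 time points, 2 libraries each) were used. Per the study's methods the authors trimmed reads, aligned them to mm10 with Bowtie2, removed duplicates and called peaks with MACS2. The deposited lists, 1 per library, give per interval a fold enrichment ratio, a −log10 p and a −log10 q; they hold no read counts, so depth is unknown. The lists held 141271 to 213226 lines; lines that repeat an interval were reduced to the strongest by −log10 p. Intervals of all lists that overlap by at least 1 bp were merged into 315767 regions, and those listed in at least 4 of 8 libraries (101469) were tested. Log2 fold enrichment, with unlisted values set to the lowest of the list, was quantile-normalized and fitted with limma 3.58.1 in R 4.3.3 (moderated test, two-sided, Benjamini-Hochberg over all regions). With 2 against 2 libraries an exact permutation test cannot give a p under 0.333, so counts of regions apart from 0 h carry no test. Start sites and gene bodies are from GENCODE M21, sequences from RefSeq GRCm38.p6. The members, the pathway lists and the marker lists (hepatocyte, cholangiocyte, endothelial, Kupffer, stellate) were chosen with earlier results of these data known. Named regions are the strongest promoter and the strongest distal region of each gene, any region called, and distal regions apart from 0 h in the same direction at all 3 times; regions named beyond these were chosen after their values were seen. 1 other marker list and 1 sequence are not reported here. The fit was run on simulated data that gave all regions the same spread and held no unlisted values. These lists differ in both respects, so that run does not show how the fit handles them. Alternatives changed the measure, normalization, filters, interval width, window (5 and 50 kb), treatment of unlisted regions and libraries. The replicate numbers gave deviations correlated between times at r = -0.05 to 0.09 and were not taken as pairs. Library 72 h replicate 2 carried another sequencing lane tag in its name than the rest; the labels give no batch.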

Additional observations from a re-analysis of the deposited data

Results flagged for a closer look

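In 13 distal regions of 6 genes, both libraries of a time stood on one side of both 0 h libraries and both libraries of another time on the other side, by percentile. This gave 16 pairs of times, and the difference between the times was not tested. Such opposite sides were held by 8 of 139 member regions between 48 h and 72 h (5.76%, beside 3.32% of all 101469 regions), 5 between 48 h and 96 h (3.60%, beside 2.55%) and 3 between 72 h and 96 h (2.16%, beside 1.75%). By rank within the list 7 of the 16 pairs, in 6 regions, kept opposite sides: those of the Lgr5, Rnf43 and Lef1 regions and of the Tcf7l2 regions 56.2, 61.5 and 150 kb into the gene. The others named below, among them both Lgr4 regions and the Tcf7l1 region, did not. By rank there were 4 member regions on opposite sides between 48 h and 72 h (2.88%, beside 2.59% of all), 5 between 48 h and 96 h (3.60%, beside 2.39%) and 2 between 72 h and 96 h (1.44%, beside 1.55%).

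Tcf7l2 had 7 of the 13 regions. In its intron 61.5 kb from the start, the mean percentile at 96 h minus 48 h was 76.08: the libraries had 64.7/37.4 at 0 h, were not listed at 48 h, and had 75.0/58.6 at 72 h and 84.3/67.8 at 96 h. The region 39.5 kb into the gene was listed at 0 h (36.5 and 30.3) and 96 h (47.4 and 40.3) and at neither 48 h nor 72 h, a difference of 43.85 from either. The region 77.4 kb into the gene was at 48.2/70.7 at 72 h and not listed at 96 h, a difference of -59.43. Means at 72 h minus 48 h were 50.62, 30.92 and 17.21 for the regions 116, 56.2 and 2.51 kb into the gene; the last had -16.95 at 96 h minus 72 h. The region with 3 TCF/LEF words, 150 kb into the gene, had 16.49 at 96 h minus 48 h.

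In the strongest distal region of Lgr5, 109 kb into the gene, the mean at 72 h minus 48 h was 30.68 and at 96 h minus 48 h 30.11. In that of Rnf43, 41.8 kb into the gene, the mean at 72 h minus 48 h was 21.32. A region of Lgr4 66.0 kb into the gene had 33.52 and another 33.6 kb into it had 10.18, both at 72 h minus 48 h. A Lef1 region 119 kb from the start had 50.36 at 72 h minus 48 h, with 22.7/23.3 at 0 h and no listing at 48 h. A Tcf7l1 region 18.7 kb into the gene had 35.76 at 96 h minus 48 h.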

How the results depend on the processing

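No member region and no region of the genome was called at 48, 72 or 96 h in any alternative except the 50000 strongest intervals of each list. There 857, 676 and 608 of 49699 regions were called at 48, 72 and 96 h, 1235 in the F test and 1 of 54 member regions at 48 h. In that alternative a region outside the top of a list takes the lowest value of the shortened list. The called region was an intron of Tcf7l2 at chr19:55870808-55871322 (log2 difference 2.03 ± 0.30 SE, limma adjusted p = 0.035). In the full lists it had percentiles of 43.7 and 45.2 at 0 h and 65.5 and 74.8 at 48 h, and a log2 difference of 0.72 ± 0.32 SE. With the replicate block there were again 0 calls at 48, 72 and 96 h. The numbers do not pair the libraries (r = -0.05 to 0.09 between deviations), and the block moved the regions at an unadjusted p under 0.05 from 8395 to 8419 at 48 h.

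Member regions apart from 0 h by percentile numbered 62 at 48 h, 68 at 72 h and 50 at 96 h (44.6%, 48.9% and 36.0%, beside 37.3%, 44.2% and 34.2% of all regions). With regions in all 8 lists (72 regions) they were 32, 38 and 28 (44.4%, 52.8% and 38.9%, beside 41.8%, 45.0% and 36.4%), and with the 50000 strongest intervals (54 regions) 22, 18 and 16 (40.7%, 33.3% and 29.6%, beside 43.3%, 41.9% and 35.0%), both from fewer regions. Leaving out a library gave 85 to 102 at 48 h, 89 to 112 at 72 h and 82 to 99 at 96 h, since fewer libraries must stand apart. Over all regions these settings gave 59.6% to 70.3%, 65.7% to 74.4% and 56.4% to 71.3%, and over the members 61.2% to 73.4%, 64.0% to 80.6% and 59.0% to 71.2%. The counts moved by over 1.5 times without 0 h replicate 2, 48 h replicate 1 or 48 h replicate 2 at 48 h, without 0 h replicate 1 or 72 h replicate 1 at 72 h, and without any of the 4 at 96 h. Ranks, chosen after seeing the data, kept the counts within 1.5 times but moved the split as given above. The Lgr5 promoter difference at 48 h turned from -0.07 to 0.40 with −log10 p and ranged from -0.22 without 48 h replicate 1 to 0.085 without 48 h replicate 2; the cause was not tested. The other fitted differences quoted kept their direction wherever they could be fitted, but several sizes moved by over 1.5 times. On the log2 scale of −log10 p the 48 h differences of the promoters became -1.03 (Axin2), -1.10 (Znrf3) and 1.28 (Lef1; 1.91 at 72 h), and those of the Tcf7l1 region 81.3 kb into the gene 2.0 and 1.84 at 48 and 72 h. With 200 bp around each summit they were -1.53 for Axin2 and 0.11 and 1.36 for Lef1 at 48 and 72 h, and with a q under 0.05 0.27 and 1.26 for Lef1. With the 50000 strongest intervals the Tcf7l1 region had 2.15 and 2.06. With unlisted values left missing the lower Tcf7l2 region had -0.48 at 72 h and -0.45 at 96 h, and the Apc region 55.0 kb into the gene 0.86 at 96 h. Median centring gave -0.21 for the Lgr5 promoter. With 2 libraries a time and no read counts, the Tcf7l1 region 81.3 kb into the gene was not called at 48 h over all regions. It was listed in all 8 libraries and had a log2 difference of 1.18 ± 0.30 SE (limma adjusted p = 0.35). The larger 2.0 ± 0.37 SE of the Tcf7l2 region 167 kb into the gene (72 h, limma adjusted p = 0.45) rests on 0 h values set to the lowest of their lists.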
